A study of Mus musculus with 2 samples.

Results

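The data concern 6 stretches of the mouse genome made up mainly of olfactory receptor genes, 3 on chromosome 7, 2 on chromosome 9 and 1 on chromosome 19. The rule uses position and no measured value, although the blocks were proposed with earlier results of these data known. Its members are the genomic probes of the array whose start, in the mm9 build, lies from 109.65 to 110.94 Mb (block A), 111.03 to 111.8 Mb (block B) or 113.7 to 116.0 Mb (block C) of chromosome 7, from 18.1 to 20 Mb (block D) or 37.4 to 40.1 Mb (block E) of chromosome 9, or from 12.0 to 14.0 Mb (block F) of chromosome 19. They number 2986 of 174638 genomic probes (1.71%) and fall into 403 of 22170 tiled regions (1.82%), which are sets of probes with starts less than 1000 bp apart. Block A held 527 probes, block B 287, block C 535, block D 264, block E 852 and block F 521. The files name no genes, so the gene content of the blocks rests on their coordinates and no single receptor gene could be assigned to a probe.

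Thymidine-treated mouse embryonic fibroblasts (MEFs) were compared with untreated MEFs, with 1 array each, by methylated DNA immunoprecipitation on a tiling array. The treated cells received 100 µM thymidine, a deoxynucleoside, for 2 days, and the untreated cells were grown without it. Cells of both groups came from C57BL/6 embryos at E14.5, had been depleted of cells with the blood-progenitor markers CD45, CD41, CD31 or c-Kit, and were grown on mitomycin-treated MEF feeder cells. The labels do not say whether feeder DNA was kept out. The source label of the treated sample also names a CD45 sort, and the origin of its input DNA is labelled in conflicting ways, so that treatment, sort, input, slide and scan cannot be told apart. Because each group had 1 array, the spread between replicates is unknown, no difference could be tested, and the values describe these 2 arrays. The array measured DNA, so the cell type could not be checked through expressed marker genes.

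Olfactory receptors are G protein-coupled receptors that bind odorants on the cilia of olfactory sensory neurons. Their genes form one of the largest mammalian gene families, arranged in tandem clusters, and each sensory neuron expresses a single receptor gene while the rest of the family is held silent in closed chromatin. Fibroblasts are not olfactory cells and serve as a tissue in which these genes are generally off. In the assay an antibody against 5-methylcytosine pulls down methylated DNA fragments, here 200 to 1000 bp long, and the yield of a fragment rises with the number of methylated cytosines it carries. In vertebrate DNA these lie mainly in CG dinucleotides, so a low ratio of precipitate to input can reflect few CG dinucleotides, little methylation of them, or both.

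The promoter windows annotated for the family held few CG dinucleotides, a description of gene starts and not of the probes. In the RefSeq gene table of another build, GRCm38.p6, used here for names, gene order and promoter sequence only, 432 protein-coding genes with Olfr symbols lay on chromosomes 7, 9 and 19. These are counted over whole chromosomes, and which of them lie in the blocks was not checked. Along chromosome 7 there were 13 stretches of at least 5 neighbouring protein-coding genes that were all olfactory receptors, on chromosome 9 there were 5 and on chromosome 19 there were 2, the longest with 42, 40 and 41 genes. A promoter window of 300 bases around the annotated start was given for 377 of the 432 genes. Such a window can reach past the start into the gene. The letters CG occurred in 65.5% of these windows, against 94.2% of the 27025 windows of all genes. The median was 1 CG per window (quartiles 0 and 2, highest 6), against 7 in all genes (quartiles 3 and 20). At least 5 were found in 7 receptor windows (1.86%), against 61.2% of all windows. The median share of G and C was 35.7% in the receptor windows, against 52.7% in all windows. The count was the same by chromosome, with a median of 1 CG on chromosomes 7, 9 and 19.

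**Figure D1:**
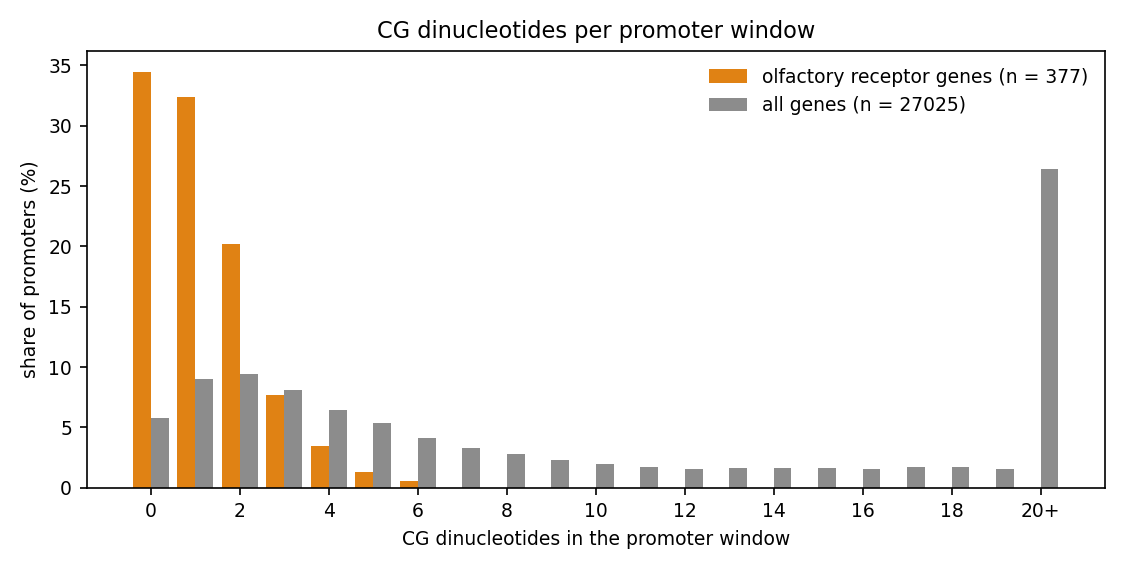
Number of CG dinucleotides in 300-base promoter windows (horizontal axis, 20 and above pooled) as the share of windows in percent (vertical axis), for 377 olfactory receptor genes of chromosomes 7, 9 and 19 and for all 27025 genes with a window. Receptor windows crowd at 0 to 2, while the windows of all genes have a median of 7.

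The windows below are shown 5′ to 3′ on the strand of the gene, with each CG in capitals, as examples of the windows counted above. Olfr67 and Olfr66 are the receptor genes nearest to the beta-globin genes in the gene order of chromosome 7, one on each side, at chr7:103791781-103792080 and chr7:103882192-103882491, both on the minus strand. Olfr877, at chr9:37854570-37854869 on the plus strand, has 6, the most of the chromosome 9 receptor windows. Olfr1426, at chr19:12091798-12092097 on the minus strand, has none and comes first by symbol among the 20 receptor windows of chromosome 19 without any. These coordinates are of GRCm38.p6 and cannot be set against those of the array, so it is not known which probes, if any, lie in these windows. The sequences are RefSeq's.
Olfr67: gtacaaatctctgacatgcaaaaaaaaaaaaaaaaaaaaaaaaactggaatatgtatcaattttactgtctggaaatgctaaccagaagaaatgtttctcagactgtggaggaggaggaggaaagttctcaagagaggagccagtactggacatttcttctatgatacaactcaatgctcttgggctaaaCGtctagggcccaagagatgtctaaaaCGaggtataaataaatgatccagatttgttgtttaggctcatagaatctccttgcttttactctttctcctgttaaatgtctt
Olfr66: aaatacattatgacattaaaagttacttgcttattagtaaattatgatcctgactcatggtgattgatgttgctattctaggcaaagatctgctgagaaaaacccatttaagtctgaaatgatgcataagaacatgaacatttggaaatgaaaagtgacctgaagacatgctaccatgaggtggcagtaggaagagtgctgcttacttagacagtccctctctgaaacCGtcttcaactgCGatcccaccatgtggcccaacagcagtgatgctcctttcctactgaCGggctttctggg
Olfr877: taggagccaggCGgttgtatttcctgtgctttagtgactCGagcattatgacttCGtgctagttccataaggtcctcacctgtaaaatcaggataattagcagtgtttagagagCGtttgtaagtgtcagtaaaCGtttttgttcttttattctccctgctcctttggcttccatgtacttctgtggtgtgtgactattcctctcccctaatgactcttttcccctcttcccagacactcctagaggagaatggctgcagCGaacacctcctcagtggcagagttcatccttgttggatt
Olfr1426: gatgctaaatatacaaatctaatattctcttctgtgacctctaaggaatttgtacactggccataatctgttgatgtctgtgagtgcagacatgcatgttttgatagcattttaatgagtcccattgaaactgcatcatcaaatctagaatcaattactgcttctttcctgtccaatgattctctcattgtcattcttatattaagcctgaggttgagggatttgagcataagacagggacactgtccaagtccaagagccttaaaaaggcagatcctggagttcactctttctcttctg
Olfr67 holds 2 CG and Olfr66 holds 3 in 300 bases, and the share of G and C in the 4 windows lies between 36.3% and 45.7%. The sequences of the probes themselves were not used here, so the part of CG content in the values that follow was not tested, nor was binding of a probe to more than one gene of the family.

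The blocks gave dim signals in both channels. The input channel was well above background, by the scanner software's own call, at 60.1% of block probes in treated MEFs and 68.4% in untreated MEFs, against 81.7% and 88.4% of all genomic probes. The precipitate channel was well above background at 45.1% of block probes in treated and 46.3% in untreated MEFs, against 69.2% and 70.3% of all probes. The median raw input signal of the blocks was 5.29 times the local background in treated and 5.0 times in untreated MEFs, and the raw precipitate signal 2.32 and 2.56 times. Over all probes the 4 values were 10.8 and 10.1 times for the input and 5.0 and 5.94 times for the precipitate. Block D was the dimmest, with an input well above background at 41.7% of its probes in treated and 51.5% in untreated MEFs. Block B was the brightest, at 70.7% and 77.7%.

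A probe was kept when neither array called its input dim or set an outlier flag. This left 1792 of the 2986 block probes (60.0%), against 81.6% of all probes. The input was too dim on both arrays at 940 of the others, on the treated array alone at 250 and on the untreated array alone at 3, and 1 had an outlier flag. Of the kept block probes, 1289 (71.9%) also had a precipitate signal well above background on both arrays, against 82.8% of all kept probes. It was well above background on neither array at 412 of the 1792, against 19808 of all 142569 kept probes. The kept probes are therefore the brighter part of each block. Among them the input signal, on a log2 scale centred on the array median, was still low, at a median of -0.64 in treated and -0.58 in untreated MEFs. The precipitate signal lay lower again, at -0.89 and -0.96. By block the input ranged from -0.84 (F) to -0.21 (B) in treated and from -0.73 (E and F) to -0.16 (B) in untreated MEFs. The precipitate ranged from -1.09 (C) to -0.64 (A) and from -1.11 (F) to -0.62 (B). In each of the 6 blocks and on both arrays the precipitate was further below the array median than the input.

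**Figure D2:**
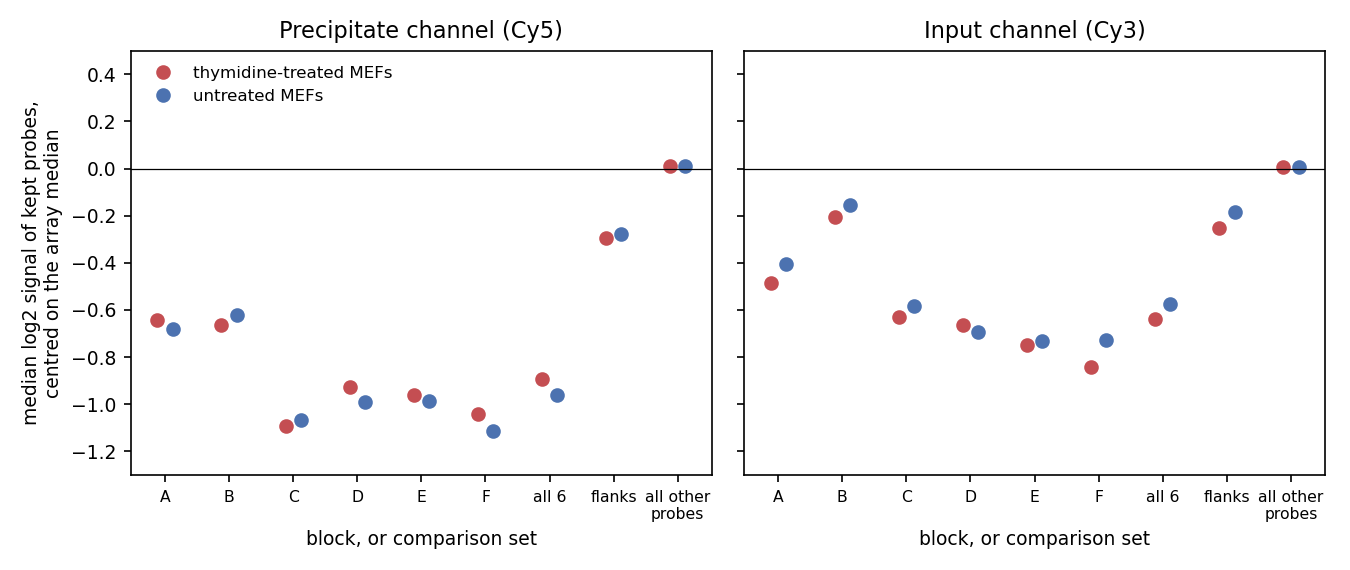
Median log2 signal of kept probes, centred on the median of each array, in the precipitate channel (left) and the input channel (right) for blocks A to F, all 6 blocks, their flanks within 1000 kb and all probes outside the blocks. All 6 blocks lie below the array median in both channels on both arrays, and further below it in the precipitate than in the input channel.

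The ratio of precipitate to input was moderately low in the blocks on both arrays. The ratio is given as log2(Cy5/Cy3), precipitate over input, centred on the median of each array, so that 0 is the typical kept probe. Its median over the 1792 block probes was -0.24 in treated MEFs (SD over probes 0.90, quartiles -0.79 and 0.26) and -0.27 in untreated MEFs (SD 1.03, quartiles -0.93 and 0.23). The 95% interval of the median that counts probes only was -0.29 to -0.21 in treated and -0.34 to -0.23 in untreated MEFs, and neighbouring probes are not independent. The quartiles of all kept probes were -0.49 and 0.47 in treated and -0.58 and 0.46 in untreated MEFs, so the blocks overlapped them widely. Probes at -1 or less, a deficit of at least 2-fold, made up 18.5% of block probes in treated MEFs (332 probes, 95% Wilson interval 16.8% to 20.4%), against 11.3% of all kept probes, and 22.9% in untreated MEFs (411 probes, 21.0% to 24.9%), against 15.0%. Probes at 1 or more made up 5.30% in treated MEFs (95 probes, 4.36% to 6.44%), against 7.60% of all, and 4.35% in untreated MEFs (78 probes, 3.50% to 5.40%), against 7.17%. On both arrays at once, 294 block probes (16.4%) were at -1 or less, against 10.1% of all kept probes, and 58 (3.24%) were at 1 or more, against 5.15%. The share at -1 or less also varied by chromosome. Outside the blocks it was 16.2% in treated and 20.3% in untreated MEFs on chromosome 7. It was 9.25% and 13.0% on chromosome 9, and 9.23% and 13.3% on chromosome 19.

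**Figure D3:**
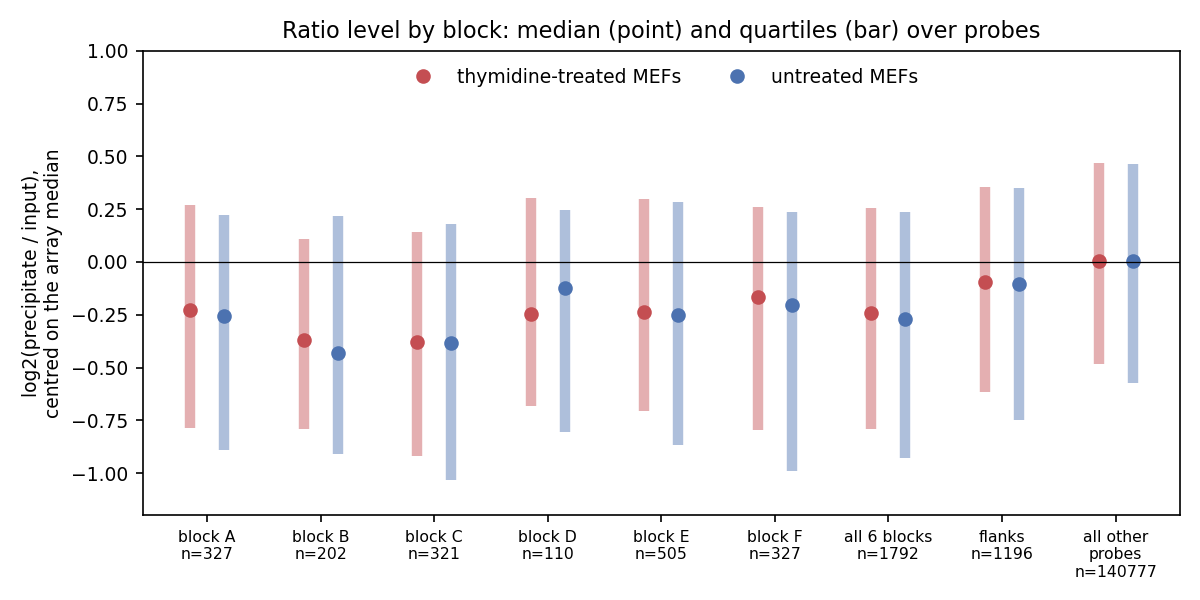
Median (points) and quartiles (bars) of the centred log2 ratio of precipitate to input over kept probes, in thymidine-treated and untreated MEFs, for blocks A to F, all 6 blocks, the flanks and all probes outside the blocks. The medians of all 6 blocks lie below 0 on both arrays, from -0.38 to -0.16 in treated and from -0.43 to -0.12 in untreated MEFs.

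All 6 blocks had a median below 0 on both arrays, with some spread between them. In treated MEFs block C was lowest at -0.38, followed by block B at -0.37, block D at -0.25, block E at -0.24, block A at -0.23 and block F at -0.16. In untreated MEFs the order was block B at -0.43, block C at -0.39, block A at -0.25, block E at -0.25, block F at -0.20 and block D at -0.12. The probe-counting intervals of neighbours in either order overlapped. Those of blocks C (-0.46 to -0.24) and F (-0.23 to -0.08) in treated MEFs did not. In untreated MEFs those of C (-0.477 to -0.289) and F (-0.293 to -0.101) overlapped. Because neighbouring probes are not independent, such intervals do not show which blocks differ. Only the interval of block D in untreated MEFs reached above 0 (-0.34 to 0.05). Block D had 110 kept probes, the fewest. The share of probes at -1 or less was highest in block C, at 22.7% in treated and 26.5% in untreated MEFs, and lowest in block E in treated MEFs (15.0%) and in block D in untreated MEFs (19.1%).

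The level of the ratio depended on how bright a probe was, and the blocks were lower than other probes in 9 of the 10 comparisons at like brightness. Among probes whose input signal lay between -1 and 0 on the centred log2 scale, the median ratio of 532 block probes was -0.36 in treated and -0.39 in untreated MEFs, against -0.06 and -0.09 at 35081 probes outside the blocks. Between 0 and 1 it was -0.15 and -0.17 in the blocks, against 0.07 and 0.09 outside. At 1 and above it was -0.03 and 0.06, against 0.16 and 0.19. In the class from -2 to -1, where 44.6% of block probes had a measured precipitate on both arrays, it was -0.38 and -0.46, against -0.26 and -0.38. Below -2 it was -0.20 and -0.25 in the blocks, against -0.21 and -0.22 outside, and treated MEFs were the exception. Probes below an input of -1 made up 31.25% and 6.25% of the kept block probes in these last 2 classes, against 21.7% and 3.28% outside.

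Pooled, the flanks of the blocks lay between the blocks and the array median, though those of blocks D and E lay above that median. Flanks were set by distance alone, and whether they hold receptor genes was not checked. Kept probes within 1000 kb outside a block edge numbered 1196, with a median ratio of -0.10 in treated and -0.11 in untreated MEFs, so that the blocks lay below their flanks by 0.15 and 0.16 on the log2 scale. The flanks of blocks A, B and C had medians of -0.09, -0.26 and -0.19 in treated and -0.09, -0.32 and -0.20 in untreated MEFs. Those of blocks D and E were at 0.01 and 0.05 in treated and 0.04 and 0.02 in untreated MEFs, and those of block F at -0.07 and -0.15. Probes at -1 or less made up 15.5% of flank probes in treated and 18.7% in untreated MEFs. In the flanks of block B they made up 22.5% and 25.7%, above the 19.3% and 22.3% of block B itself. The flanks of the other blocks had lower shares than their blocks. The flanks were themselves dimmer than the array, with an input of -0.25 in treated and -0.19 in untreated MEFs. The interval between blocks A and B, from 110.94 to 111.03 Mb, had medians of -0.31 in treated and -0.48 in untreated MEFs over 33 kept probes of 43. In the gene order of the RefSeq table the beta-globin genes, which encode the beta-type chains of haemoglobin, stand between a stretch of 25 and a stretch of 16 olfactory receptor genes on this chromosome. Loess normalisation removes the dependence of the ratio on the mean log2 signal of both channels, precipitate included, and not on the input alone. With it the block medians were -0.10 and -0.07. The gap to the flanks was then -0.04 in treated and 0.0011 in untreated MEFs.

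Tiled regions gave the same picture at a finer scale. Of the 403 regions with block probes, 359 had at least 3 kept probes, with a median of 5 kept probes over 1423 bp, against 6 probes over 1574 bp in all 21518 such regions of the array. The median ratio of a block region was -0.26 in treated MEFs (lowest -2.26, highest 0.84) and -0.27 in untreated MEFs (lowest -2.84, highest 0.68). The mean of both arrays was below 0 in 275 of the 359 block regions (76.6%), against 49.3% of all regions, and at -1 or less in 39 (10.9%), against 4.22%. It was at least 0.5 in 9 (2.51%), against 6.37%. Both arrays were below 0 in 249 block regions and above 0 in 60, counts that were not made over all regions. No block region had a median of 1 or more on either array. Such regions were rare over the whole array, at 53 of 21518 in treated and 33 in untreated MEFs. A count of 0 in 359 therefore does not set the blocks apart. The SD of the regional level was 0.52 in the blocks and 0.52 over all regions. Block regions held fewer kept probes, so equal SDs do not show whether the blocks were more or less uniform. Across block regions the 2 arrays correlated at r = 0.90 (n = 359), against 0.91 over all regions, a description across regions that share both arrays.

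**Figure D4:**
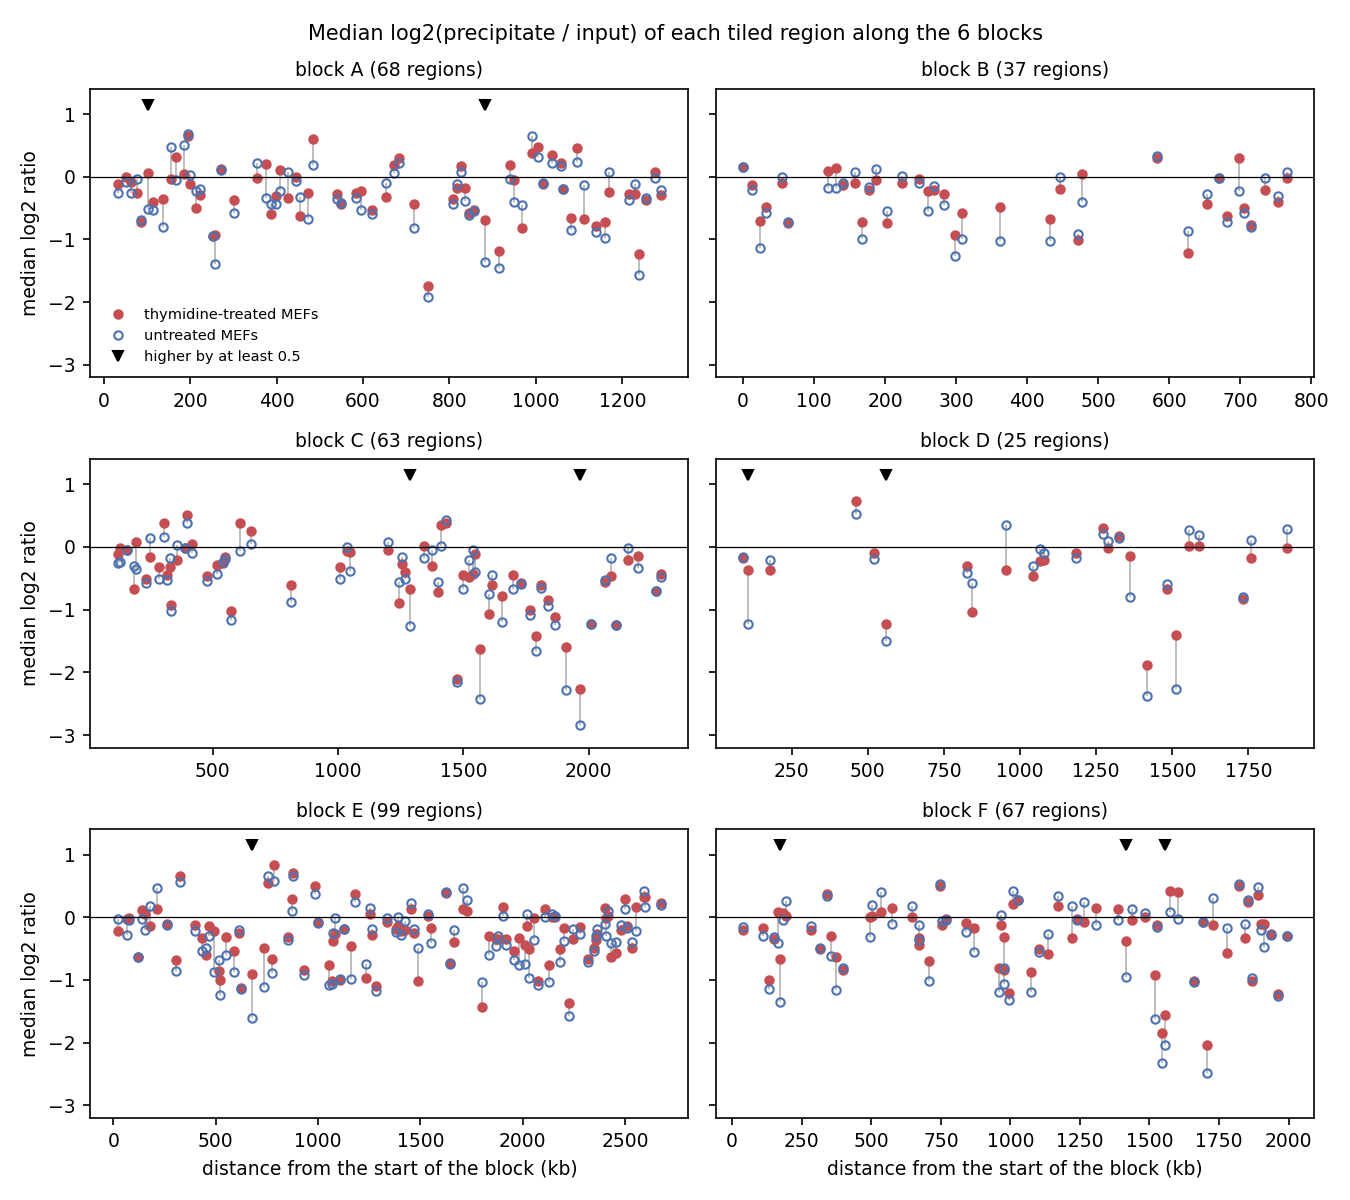
Median log2 ratio of precipitate to input of each tiled region with at least 3 kept probes (vertical axis), by its distance in kb from the start of the block (horizontal axis), with filled points for treated and open points for untreated MEFs joined by a line, and triangles above the 10 regions higher by at least 0.5 in treated MEFs. Most regions lie between -1 and 0.5 on both arrays, with the lowest in blocks C, D and F.

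The lowest regions are counted here by block, with no test of how they were spread. Those whose ratio averaged -1 or less over both arrays numbered 10 of 63 in block C and 11 of 67 in block F, against 5 of 68 in block A, 2 of 37 in block B, 3 of 25 in block D and 8 of 99 in block E. In block C, 9 of the 10 lay more than 1200 kb from the start of the block, where 36 of its 63 regions are, and 4 of them followed each other. Beyond the same distance lay 6 of 11 in block F, where 29 of 67 regions are, 2 of 3 in block D (12 of 25), 4 of 8 in block E (58 of 99) and 1 of 5 in block A (6 of 68). This limit was chosen after the values of block C were seen. In the other blocks at most 2 low regions were neighbours. The lowest block region of all was on chromosome 7 from 115666984 to 115667438, in block C, at -2.26 in treated and -2.84 in untreated MEFs over 3 kept probes of 8. Its first probe, however, had 0.43 in treated and -0.46 in untreated MEFs, so neighbours within 500 bp differed by more than 2 log2 units on each array. The lowest region of block F, from 13706336 to 13707930 of chromosome 19, had -2.04 and -2.48 over 3 kept probes. That of block D, from 19516024 to 19517764 of chromosome 9, had -1.89 and -2.38 over 5, and that of block A, from 110400534 to 110402079 of chromosome 7, had -1.74 and -1.91 over 6. The lowest regions of blocks E (chromosome 9 from 39626336 to 39627707, -1.37 and -1.58) and B (chromosome 7 from 111328633 to 111329554, -0.93 and -1.26) were less low. In these 6 regions 9 of 25 kept probes had a precipitate well above background on both arrays, and none of the 4 in the block E region did. In the block F region the only such probe had 0.51 in treated and 0.36 in untreated MEFs. In that of block D it had 0.54 and 0.25. The low medians of these regions in F and D thus rest on probes not measured on both arrays. In block B the first probe, also measured, had 1.78 and 1.47, and its other measured probes were below 0. The measured probes of the block A region were below -1 on both arrays. The sizes of these deficits are uncertain.

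Some regions inside the blocks were well precipitated on both arrays. The highest of block E, on chromosome 9 from 38185029 to 38185906, had 0.84 in treated and 0.57 in untreated MEFs over 3 kept probes, all measured in both channels. Its probes ran from -0.83 to 0.97 in treated and from -1.06 to 1.36 in untreated MEFs. In block A the highest region, from 109845445 to 109847206 of chromosome 7, reached 0.65 and 0.68 over 6 probes, again all measured. In treated MEFs all 6 were above 0, from 0.36 to 0.98, and in untreated MEFs 5 of 6 were, from -0.42 to 0.95. The highest of block D, from 18559589 to 18560792 of chromosome 9, had 0.73 and 0.53 over 3 probes, 2 of them measured. Its unmeasured probe had -1.305 and -1.648. That of block F, from 12747384 to 12748921 of chromosome 19, had 0.50 and 0.53 over 6, 5 of them measured. The highest of block C, from 114099949 to 114101050 of chromosome 7, had 0.50 and 0.39 over 6, 4 of them measured. Its unmeasured probes had -1.734 and -1.175 in treated and -2.303 and -2.795 in untreated MEFs. That of block B, from 111613420 to 111614621, had 0.29 and 0.33 over 5, inside the quartiles of all kept probes. A measured probe of that region had -2.433 and -3.256. Of the 9 block regions with a mean of at least 0.5, 4 lay in block E, 2 in block A, 2 in block F and 1 in block D.

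Thymidine-treated and untreated MEFs differed in the blocks by about as much as elsewhere. The difference, treated minus untreated, had a median of 0.08 over block probes (SD over probes 0.37, probe-counting interval 0.06 to 0.10), against 0.07 over all kept probes (SD 0.36). It was 0.09 in block A, 0.06 in block B, 0.11 in block C, 0.02 in block D, 0.07 in block E and 0.09 in block F. The precipitate signal, centred on its own median difference, differed by 0.02 and the input signal by -0.0038 over the blocks. By block the precipitate differed by -0.01 to 0.03 and the input by -0.03 to 0.03. The value for the blocks was -0.0095 after quantile normalisation, -0.01 with the level trend removed and 0.01 with loess, while the median of all probes under these settings was 0.0036, 0.0008 and 0.03.

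At single probes, 22 of the 1792 block probes (1.23%) were higher by at least 1 in treated MEFs, against 1.07% of all kept probes, and 1 (0.0558%) was lower by at least 1, against 0.0926%. The scanner software's own error of a difference had a median of 0.39 in the blocks and 0.34 over all probes. Beyond 2 of these errors lay 25 higher and 13 lower block probes, 2.12% together, against 2.95% of all. The correlation between the arrays across block probes was r = 0.94 (n = 1792), against 0.93 over all probes. Pairs of adjacent kept probes less than 300 bp apart correlated at r = 0.12 in treated and 0.14 in untreated MEFs over 935 block pairs, against 0.22 on each array over 94190 pairs.

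Among the regions, 10 of 359 (2.79%) were higher in treated MEFs by a median of 0.5 or more, 80% or more of their probes sharing the sign, against 0.706% of all regions, and 0 were lower by the same rule, against 0.0558%. The count was 7 with loess, against 0.483% of all regions under that setting. It was 2 after quantile normalisation (0.0697% of all regions), 2 with the level trend removed (0.079%) and 4 without the filter on dim probes (0.478%). Among 188 block regions with at least 5 kept probes it was 3, against 0.541% of all such regions. It was 0 with normexp background correction (0.0093% of all), with both channels well above background (0.387%) and in the authors' deposited table (0.0186%). The count with both channels is over 260 block regions and that without the filter over 400. The limit of 0.5 was not rescaled for any setting, although the authors' values span a narrower scale than the raw ratio. Such regions were more frequent at low ratios everywhere. Below a mean ratio of -1 there were 6 of 39 block regions (15.4%), against 7.95% of 868 regions outside, between -1 and -0.5 there were 3 of 77 (3.90%), against 1.91%, and between -0.5 and 0 there was 1 of 159 (0.629%), against 0.443%. They were also more frequent among regions with few kept probes. With 3 kept probes there were 5 of 78 (6.41%) in the blocks, against 2.97% outside, with 4 or 5 there were 5 of 173 (2.89%), against 1.04%, and with 6 or more there were 0 of 108, against 0.405%. Regions with 3 kept probes made up 21.7% of block regions and 4.29% of the others. The part of dim signal in these counts was not tested.

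**Figure D5:**
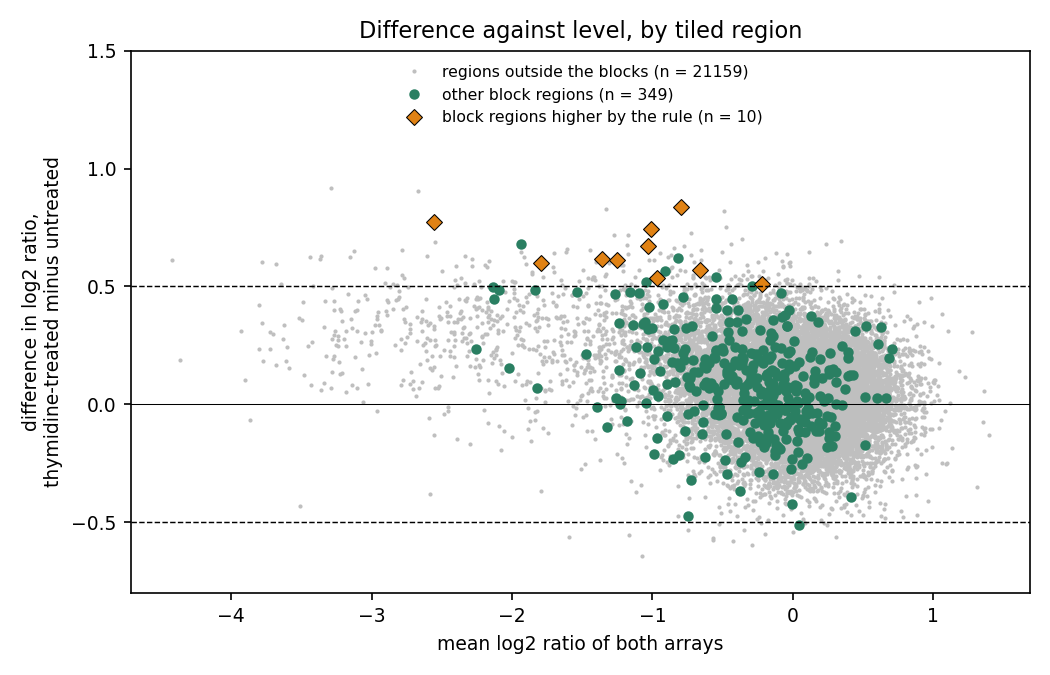
Difference in log2 ratio, treated minus untreated (vertical axis), against the mean ratio of both arrays (horizontal axis) for 21159 regions outside the blocks (grey), 349 block regions (green) and the 10 block regions higher by at least 0.5 with 80% of probes of that sign (orange diamonds). Dashed lines mark 0.5 and -0.5. The 10 regions lie at mean ratios from -2.55 to -0.22, and the median difference grows towards low ratios, to 0.34 in the blocks and 0.27 outside below -1, against 0.03 and 0.04 at 0 and above.

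In all 10 regions the input signal was lower in treated MEFs, by a median difference of -0.36 (-0.46 to -0.06), and the precipitate signal was higher, by a median of 0.26 (0.10 to 0.36). The rule that picked them selects for both of these signs. Of their 38 kept probes, 18 had a precipitate well above background on both arrays. The region with the highest difference was on chromosome 9 from 18207994 to 18209124, in block D, with ratios of -0.37 in treated and -1.22 in untreated MEFs and a difference of 0.84 (SD over 3 probes 0.31). Its probes had -0.94, -0.37 and -0.01 in treated MEFs, against -1.78, -1.22 and -0.32 in untreated MEFs, so all 3 were higher. The middle probe, which sets these medians, had a precipitate well above background on neither array, and the difference over the 2 measured probes was 0.57. The region from 115666984 to 115667438 of chromosome 7, which was also the lowest of all, had a difference of 0.77 (SD over 3 probes 0.16). In block F a region of chromosome 19, from 12173629 to 12174955, had -0.67 and -1.35 and a difference of 0.74 (SD over 4 probes 0.22), with 1 of 4 probes measured in both channels on both arrays.

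The remaining 7 had differences from 0.51 to 0.67. A region of block A, on chromosome 7 from 109751836 to 109753195, had 4 of 5 probes measured and the highest level of the 10, with 0.06 in treated and -0.51 in untreated MEFs and a difference of 0.51, or 0.35 over the measured probes. The other region of block A, from 110532028 to 110532536, had -0.69 and -1.37, with a difference of 0.67 over all 3 kept probes and 0.71 over the 2 measured. In block C the region from 114988775 to 114990399 had -0.67 and -1.26 and a difference of 0.54, but 0.06 over its 3 measured probes. Block E had 1, on chromosome 9 from 38075288 to 38076545, with -0.91 and -1.60 and a difference of 0.61, and its 1 measured probe differed by 0.02. In block F the regions from 13415184 to 13416559 and from 13554208 to 13554879 of chromosome 19 differed by 0.57 and 0.60, or by 0.23 over 2 measured probes and 0.50 over 1. The second region of block D, from 18660585 to 18661567 of chromosome 9, had no measured probe, and no fold is given for it.

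At the other end, the most negative differences were smaller than the positive ones in 5 of the 6 blocks. That of block B, on chromosome 7 from 111727788 to 111728459, was -0.51 (SD over 3 probes 0.76), with 2 of 3 probes lower, while the medians of its ratios ran the other way, at 0.31 in treated and -0.22 in untreated MEFs. The probe that sets this difference was measured on neither array in the precipitate channel. The difference was -0.052 over the 2 measured probes, and it was above 0 in the authors' deposited table (0.17) and after normexp (0.11). The region of block E from 38885834 to 38887500 of chromosome 9 had -1.01 and -0.49 and a difference of -0.47 (SD over 4 probes 0.31), with all 4 lower, or -0.25 over the 3 measured probes, and its input was higher by 0.28 in treated MEFs. The region of block D from 19053410 to 19054720 had -0.37 and 0.36 and a difference of -0.42 (SD over 3 probes 0.29), or -0.58 over the 2 measured probes, with an input higher by 0.45. The region of block F from 13889604 to 13890540 of chromosome 19 had 0.36 and 0.47 and a difference of -0.39, with all 3 probes lower and all measured in both channels. Those of block A (110103641 to 110104155) and block C (114944633 to 114945275) on chromosome 7 differed by -0.30 and -0.32. Over all block regions 235 differences were above 0 and 124 below, 65.5% above, against 65.1% of all regions.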

How the data were processed

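Methylated DNA immunoprecipitation was measured on 2 two-colour arrays, Cy5 for the precipitate and Cy3 for the input per the labels, 1 for treated and 1 for untreated MEFs. The deposited intensity values are processed signals, after background subtraction and linear dye normalisation, with raw medians of spot and local background, from Agilent Feature Extraction 11.0.1.1 on an mm9 grid per the file headers. The deposited log10 ratios matched the processed signals to within 1e-06 on 96.9% of treated-array and 97.4% of untreated-array probes. Their log10 errors are the scanner software's own, per the file headers. The authors also deposited a table of log ratios taken as log2. For its base and normalisation, sources used here give nothing, and its column medians were -0.019 and -0.0141. It followed the raw log2 ratio at r = 0.92 on each array, in the positive direction, with slopes of 0.77 in treated and 0.67 in untreated MEFs.

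From these, log2(Cy5/Cy3) of 174638 probes (180465 spots less 5827 controls) was centred on the median of the 142569 kept probes of each array. Regions needed 3 kept probes and were counted as higher or lower at a median difference of 0.5 with 80% of probes of one sign. The rule was run on simulated data, which were shuffled probe differences with known shifts larger than 0.5 added. Shuffling removes the dependence of the difference on level, so the simulation does not show how the rule behaves in dim or low regions. Region ratios are medians over probes, so their difference need not equal the median difference. The named regions are the highest and lowest of each block by level and by difference, and those past the rule. The members and lists were chosen with earlier results of these data known. Depth is limited by the number of arrays, and intervals cover counting of probes only. Alternatives used limma 3.58.1 in R 4.3.3. Mean spot signals were not used here, and normexp (offset 50) took the medians. No p-value was computed.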

Additional observations from a re-analysis of the deposited data

How the results depend on the processing

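With 1 array per group, no precision between cultures is known, and dim signal limits the blocks further, since 60.0% of their probes were kept. The median over all block probes stayed below 0 in both groups under the alternatives run for it. No paired analysis was possible because each group has 1 array. The values that moved are given as treated, then untreated. The block level was -0.0894 and -0.14 with normexp, -0.0976 and -0.0726 with loess, -0.17 and -0.22 without the filter on dim probes, -0.17 and -0.17 with both channels well above background, and -0.12 and -0.16 in the authors' deposited table. The share of probes at -1 or less was 2.40% and 5.08% with normexp (all probes 2.25% and 3.83%), 9.32% and 13.6% with loess (6.31% and 9.89%), 21.9% and 20.1% after quantile normalisation (13.2% on each), 8.38% and 12.0% with both channels above background (4.92% and 7.73%), 4.97% and 6.53% in the authors' table (3.77% and 4.21%), and 16.1% in treated MEFs without the filter (12.5%). The share at 1 or more was 1.73% and 1.45% with normexp (all probes 2.88% and 2.87%), 0.837% and 0.558% in the authors' table (1.38% and 1.35%), 4.29% in treated MEFs without the filter (7.81%), and 7.81% in untreated MEFs with loess, where all probes had 7.24% and the blocks no longer lay below them. The gap to the flanks was -0.0447 and -0.0703 with normexp, -0.0362 and 0.0011 with loess, -0.0642 and -0.0967 without the filter, -0.0954 and -0.104 with both channels, -0.0514 and -0.0764 in the authors' table, and -0.099 in treated MEFs with flanks of 500 kb.

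The difference of the blocks reversed to -0.0095 after quantile normalisation and -0.0135 with the level trend removed, both of which act on it by construction. It was 0.0106 with loess, 0.0533 without the filter, 0.0502 with both channels, 0.0447 in the authors' table, 0.0151 from the precipitate alone and 0.103 as a mean. The precipitate difference was 0.0394 and the input difference 0.0325 without the filter, and the input difference was -0.0351 with normexp. Regions higher by the rule numbered 0 with normexp, with both channels and in the authors' table, 2 after quantile normalisation, 2 with the level trend removed, 4 without the filter and 3 with at least 5 kept probes, whose shares of all regions stand in the results above. Regions lower numbered 2 with loess (0.177% of all regions), 1 after quantile normalisation (0.167%) and 1 with the level trend removed (0.153%). The difference turned below 0 in 5 of the 6 blocks after quantile normalisation (A -0.0057, B -0.0185, C -0.012, D -0.0247, E -0.0201) and with the trend removed (A -0.0083, B -0.0244, C -0.0244, D -0.0214, E -0.0248). It did so in blocks D (-0.0616) and E (-0.0201) with loess and in block B (-0.0103) from the precipitate alone. With loess the level of block D turned to 0.0096 in treated and 0.0966 in untreated MEFs, and that of block F to 0.0094 in treated MEFs. The difference of 11 named regions changed sign under at least 1 alternative, in 22 values. Among them, chromosome 7 from 111727788 had 0.1096 with normexp and 0.1679 in the authors' table, from 110400534 had -0.3764 after quantile normalisation and -0.4122 with the trend removed, from 114944633 had 0.083 with normexp, from 114988775 had -0.001 in the authors' table, chromosome 9 from 18559589 had -0.0373 with normexp, -0.1821 with loess and -0.0678 in the authors' table, and from 19516024 had -0.2183 from the precipitate alone. The causes of these changes were not tested.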
